A study of Homo sapiens with 36 samples.

Results

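The genes described here were higher in 2102EP-C1 cells after both of the study's ways of acting against the demethylases KDM6A and KDM6B, the inhibitor GSK-J4 and a double knockdown. Members were chosen by these measured values: the mean log2 CPM (reads scaled to a common library total, on a log2 scale) had to be higher by more than 0.378, a 1.3-fold difference, in GSK-J4 than in VC cells and in sh6A+6B than in pLKO1 cells. In each comparison the 3 treated values also had to lie above the 3 control values, and both treated means had to be over 0. Of 16104 genes measured in both 2102EP-C1 tables, 176 met the rule. They were 14.9% of the 1178 genes that met the GSK-J4 side of it and 22.6% of the 778 that met the knockdown side. Since these values chose the members, they are given below as a description, and tests are kept for groups of libraries that the rule did not use.

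RNA was measured in 2 human cell lines of embryonal carcinoma, a stem cell-like testicular germ cell tumor, each a clone resistant to cisplatin. NT2/D1-A4 and 2102EP-C1 cells were left without drug (VC), given 0.5 µM cisplatin for 6 h (Cisplatin), given 1 µM GSK-J4 for 3 days (GSK-J4), or given GSK-J4 followed by cisplatin (Combination). A further experiment used 2102EP-C1 cells with the empty vector pLKO1 or with hairpins against both genes (sh6A+6B), each without drug or with the same cisplatin dose. Every arm had 3 libraries, which makes 36 in all, and RNA was taken the day after cisplatin. Each resistant line is 1 clone, and each target had a single hairpin, so clone, hairpin, and vector cannot be told apart from line and knockdown. No source says whether the 3 libraries of an arm came from separate cultures, so p-values measure the spread between these libraries.

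KDM6A and KDM6B remove methyl groups from H3K27me3, the histone mark that polycomb repressive complex 2 places on silent genes. In stem cells and embryonal carcinoma cells this mark sits on many regulators of development, and its loss is linked with their activation. Cisplatin makes DNA adducts and activates p53, the transcription factor behind many cell cycle and cell death genes. GSK-J4 is a cell-permeable ester that enters cells and is hydrolysed to the active inhibitor.

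Both targets were lower in the knockdown libraries. KDM6A was 7.16, 7.17, and 7.15 log2 CPM in pLKO1 cells and 6.14, 6.09, and 6.20 in sh6A+6B cells. KDM6B was 4.61, 4.66, and 4.63 in pLKO1 cells and 3.51 to 3.75 in the sh6A+6B libraries. With GSK-J4 the KDM6B level went the other way, from 4.46, 4.45, and 4.67 in VC cells to 5.43, 5.43, and 5.16 in 2102EP-C1 cells, while KDM6A was 7.10 to 7.14 without drug and 7.13 to 7.24 with it. The libraries held 26.8 to 49.5 M reads in the NT2/D1-A4 experiment, 30.3 to 53.6 M in the 2102EP-C1 GSK-J4 experiment, and 79.4 to 100.9 M in the knockdown experiment, so low genes are measured best in the last. All 3 controls carried the markers of the cell type: POU5F1 was 8.93 to 9.43 log2 CPM and NANOG 8.35 to 8.69 over the VC and pLKO1 libraries. The summed level of 36 to 38 pluripotency genes was lower in treated cells of every experiment, at 16439 to 16823 CPM against 17768 to 18172 for GSK-J4 in 2102EP-C1 cells, 16394 to 16547 against 17366 to 17444 for the knockdown, and 11720 to 11986 against 13194 to 13406 for GSK-J4 in NT2/D1-A4 cells. Such a sum weighs abundant genes most: over the 12 libraries of the 2102EP-C1 GSK-J4 experiment, DNMT3B spanned 10.81 to 11.76 log2 CPM and POU5F1 9.37 to 9.54. By limma calls, 5 of 36 list genes were up and 7 down in GSK-J4-treated NT2/D1-A4 cells. Of 38 genes, Combination 2102EP-C1 cells had 1 up and 9 down against Cisplatin. The knockdown after cisplatin had 5 up and 3 down. The part of this shift in summed level in the results below was not tested. In bulk RNA, more cells of a state and more RNA per cell cannot be told apart.

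Of the 176 members, 157 were protein-coding, 14 were long noncoding RNAs, and 5 were pseudogenes. The median difference was 0.63 log2 CPM with GSK-J4 (0.38 to 4.54) and 0.53 with the knockdown (0.38 to 1.72), and 112 members had the larger difference with GSK-J4. Only GREM1 was over 1, or 2-fold, in both. The sizes of both differences had no relation among the members (Spearman's rank correlation of 0.01 over 176 genes), though the rule cuts both off at its limit. The members were mostly low in untreated cells, with a median of 1.52 log2 CPM in VC libraries against 3.8 for all 16104 genes. Just inside the limit were ARHGEF2, DDIT4, and SHISA9, whose smaller differences were 0.379, 0.379, and 0.380, and just outside were ITPR1, DDAH1, and HEY2-AS1 at 0.377, 0.376, and 0.374. Members that have close copies in the genome, such as the pseudogenes, HLA-DQB1, the TNFRSF10 genes, and PCDHA5 of the shared protocadherin cluster, may exchange reads with them and are uncertain to that extent.

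**Figure D1:**
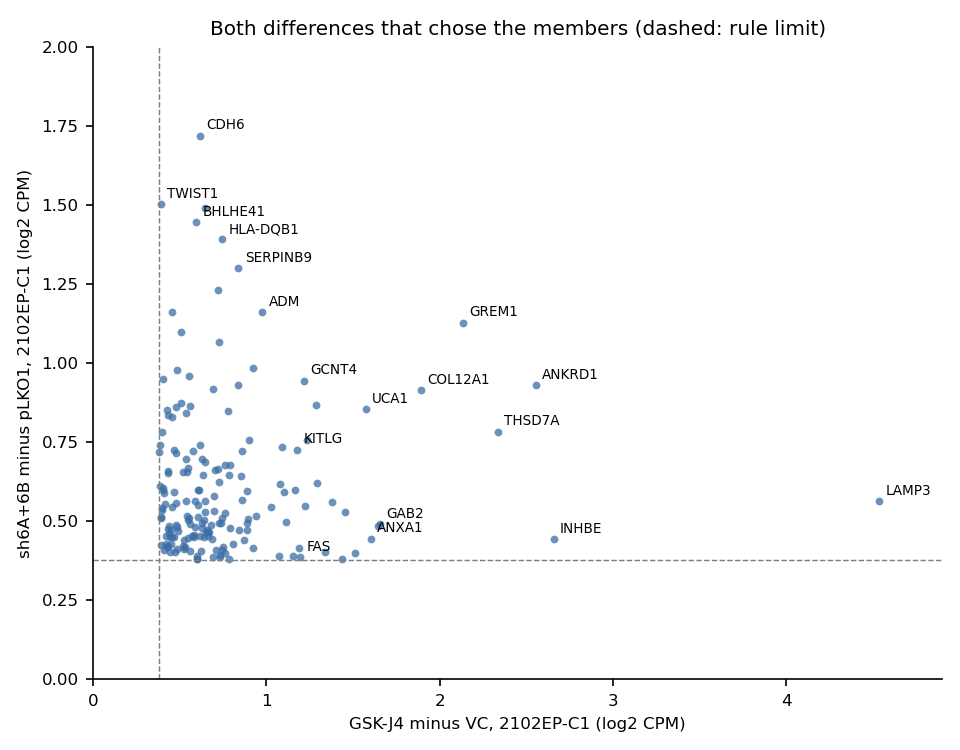
Each point is 1 of the 176 members. The x axis gives GSK-J4 minus VC and the y axis sh6A+6B minus pLKO1, both as log2 CPM differences of means in 2102EP-C1 cells, and the dashed lines mark the rule's limit of 0.378. LAMP3 stands farthest right at 4.54, CDH6 highest at 1.72, and GREM1 is the only point past 1 on both axes.

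Promoter sequence was available for 136 members in RefSeq (GRCh38.p14, 250 bases before to 50 after the gene start) and for 12314 of the 16104 genes. A set of 8 short motifs was searched on both strands. The TEAD motif (GGAATG) was present in 15.4% of the member promoters and 10.99% of all, the AP-1 site (TGANTCA) in 6.62% and 4.79%, the TATA box (TATAAA) in 10.3% and 6.35%, and the amino acid response element (TGATGCAA) in 1.47% and 0.552%. The E-box (CACGTG) was found in 8.09% and 9.72%, the hypoxia response element (ACGTG, which every E-box also holds) in 22.8% and 25.9%, the antioxidant response element (TGACNNNGC) in 11.03% and 14.8%, and the cyclic AMP response element (TGACGTCA) in 0 of 136 member promoters and 3.10% of all. A match describes the letters and is not evidence of a bound site. The median GC content was 64.8% for members and 65.0% for all, and the median ratio of observed to expected CpG was 0.685 against 0.825. Protein-coding members were longer genes, with a median span of 71.6 kb against 33.2 kb for the 13763 protein-coding genes of both tables.

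The 250 bases before the start are shown for 6 members whose results are described below, with the motif that their usual regulators read in capitals. All 6 hold the motif marked, which not every member of the groups described below did. The search found no amino acid response element in DDIT4, no TEAD motif in AJUBA, and no E-box in RORA, while TEF had 1 E-box. For CHAC1, a target of the integrated stress response, the amino acid response element is marked (chr15:40953221-40953470, + strand, where the letters run as the reverse complement). For CCN2 (chr6:131951373-131951622, - strand) and ANKRD1 (chr10:90921088-90921337, - strand), classical YAP and TEAD targets, 3 and 2 TEAD motifs are marked. For the clock-linked repressors BHLHE40 (chr3:4979187-4979436, + strand), BHLHE41 (chr12:26125038-26125287, - strand), and CIART (chr1:150282304-150282553, + strand), E-boxes are marked, 1 each in the first pair and 3 in CIART.
CHAC1: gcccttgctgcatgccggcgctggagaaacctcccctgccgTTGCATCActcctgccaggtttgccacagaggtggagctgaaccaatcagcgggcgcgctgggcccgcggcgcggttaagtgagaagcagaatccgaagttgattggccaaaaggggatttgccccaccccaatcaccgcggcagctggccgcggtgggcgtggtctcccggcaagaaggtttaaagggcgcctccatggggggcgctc
CCN2: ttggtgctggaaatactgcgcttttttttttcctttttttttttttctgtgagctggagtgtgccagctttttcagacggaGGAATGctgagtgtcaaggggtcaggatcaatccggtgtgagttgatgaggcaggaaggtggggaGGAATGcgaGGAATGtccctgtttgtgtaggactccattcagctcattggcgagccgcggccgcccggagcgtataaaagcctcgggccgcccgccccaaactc
ANKRD1: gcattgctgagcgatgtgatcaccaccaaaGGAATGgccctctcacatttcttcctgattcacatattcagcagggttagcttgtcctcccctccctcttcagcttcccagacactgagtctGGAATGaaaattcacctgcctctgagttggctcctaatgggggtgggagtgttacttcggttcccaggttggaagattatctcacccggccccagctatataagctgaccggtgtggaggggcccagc
BHLHE40: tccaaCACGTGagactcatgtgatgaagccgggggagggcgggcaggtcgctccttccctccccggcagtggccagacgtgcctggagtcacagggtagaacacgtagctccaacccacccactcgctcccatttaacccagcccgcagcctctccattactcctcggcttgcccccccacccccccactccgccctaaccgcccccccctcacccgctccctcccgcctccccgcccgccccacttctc
BHLHE41: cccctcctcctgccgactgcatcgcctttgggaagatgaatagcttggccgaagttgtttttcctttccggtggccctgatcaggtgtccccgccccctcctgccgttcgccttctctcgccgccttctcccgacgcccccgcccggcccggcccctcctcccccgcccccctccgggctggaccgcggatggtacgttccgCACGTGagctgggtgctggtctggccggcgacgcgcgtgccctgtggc
CIART: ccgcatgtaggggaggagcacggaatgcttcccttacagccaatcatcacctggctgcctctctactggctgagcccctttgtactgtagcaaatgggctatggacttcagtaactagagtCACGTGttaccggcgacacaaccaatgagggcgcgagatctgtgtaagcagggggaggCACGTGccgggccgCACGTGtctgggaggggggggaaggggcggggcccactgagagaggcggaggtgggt

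NT2/D1-A4 cells, which played no part in the choice of genes, gave the independent check. Of the 176 members, 167 were in the NT2/D1-A4 table, and CES1, F5, HLA-DQB1, INSM1, S100Z, SIGLEC6, SLC30A8, TMEM71, and UCA1 were not. With GSK-J4 alone, 119 of the 167 rose and 1 fell (limma with Benjamini-Hochberg adjustment over all genes, adjusted p under 0.05 and a fold change over 1.3). Over all 16431 genes of the table, 13.8% were called up and 6.48% down, against 71.3% and 0.599% of the members. The median difference was 0.58 log2 CPM for the members and 0.01 for all genes, and 151 members were above 0. Among the 154 members with over 0.5 CPM in at least 2 of the 6 libraries without GSK-J4, 110 rose (71.4%, against 12.9% of the 15778 genes with such values).

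After cisplatin the members gave a similar picture in NT2/D1-A4 cells. In Combination against Cisplatin libraries 108 members rose and 2 fell, with 12.8% of all genes called up and 7.84% down. The median was 0.58 log2 CPM, and 100 members rose in both comparisons, a count for which no joint share over all genes was computed. Across members the 2 sets of differences ran together (Spearman's rank correlation of 0.86 over 167 genes, from different libraries of 1 experiment). For the interaction of both drugs no member was called by limma or by voom, with 32 at an unadjusted p under 0.05, 30 of them below 0, while 0.0% of all genes were called up and 0.0426% down. The median interaction over members was -0.10 log2 CPM.

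The genes that met only 1 side of the rule were set beside the members. Of 946 genes raised by GSK-J4 and not by the knockdown under the rule, 585 (61.8%) rose in GSK-J4-treated NT2/D1-A4 cells and 6 fell. Of 535 genes that met only the knockdown side, 131 (24.5%) rose and 44 (8.22%) fell. Among cisplatin-treated cells, whose values the rule did not use, the member differences in NT2/D1-A4 Combination had a Spearman's rank correlation of 0.39 with those in 2102EP-C1 Combination and of -0.05 with those of the knockdown (167 genes each, which share base levels and length and are not replicates).

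**Figure D2:**
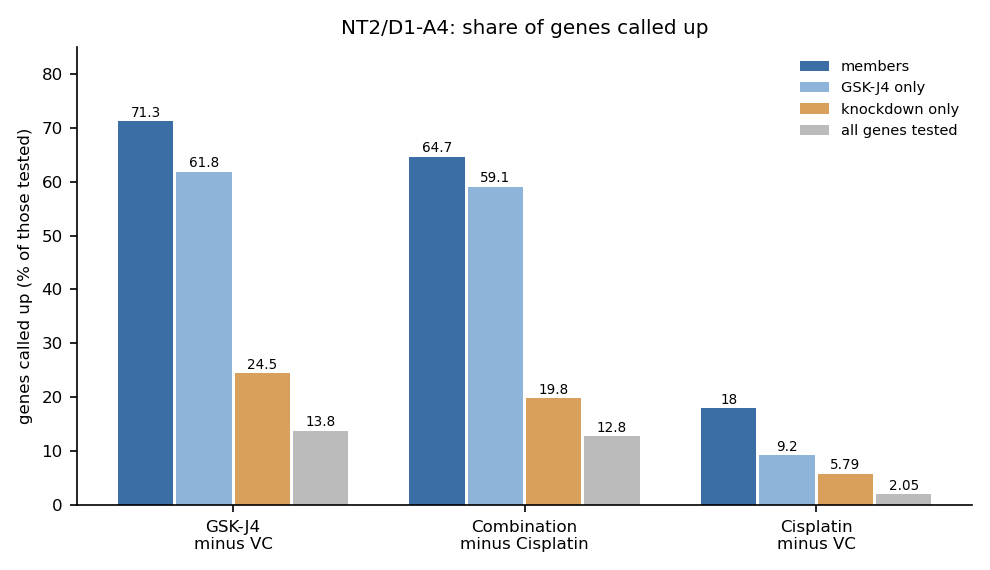
Bars give the percent of genes called up in NT2/D1-A4 cells in 3 comparisons, for the members, the genes meeting only the GSK-J4 or only the knockdown side of the rule, and all genes of the table. In GSK-J4 against VC the bars are 71.3%, 61.8%, 24.5%, and 13.8%, and the same order holds in the other 2 comparisons.

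Cisplatin alone also raised part of the list in NT2/D1-A4 cells. Of the 167 members, 30 (18.0%) rose and 3 fell with cisplatin, where 2.05% of all genes were called up and 0.396% down. The shares for genes meeting only the GSK-J4 side or only the knockdown side were 9.20% and 5.79%. Leaving out Cisplatin replicate 2 gave the lowest count, 22, beside 229 of all 16431 genes. This comparison shares its VC libraries with GSK-J4 minus VC, so no overlap of the 2 sets of calls is given. The 3 that fell were CHAC1 (-0.56 ± 0.14 log2 CPM), CCDC181 (-0.96), and LOC728715 (-0.42). In 2102EP-C1 cells the same differences share VC or pLKO1 libraries with the rule and were not tested. Their medians over members were 0.18 log2 CPM for Cisplatin minus VC, 0.16 for pLKO1 Cisplatin minus pLKO1, 0.17 for Combination minus GSK-J4, and 0.01 for sh6A+6B Cisplatin minus sh6A+6B.

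In 2102EP-C1 cells the cisplatin-treated arms were libraries that the rule did not use. In Combination against Cisplatin, 141 of the 176 members rose and none fell by limma or voom (1 was lower at an unadjusted p under 0.05), where 10.6% of all 17035 genes were called up and 8.85% down. The median was 0.66 log2 CPM. In sh6A+6B Cisplatin against pLKO1 Cisplatin, 106 rose and none fell by either tool (none was lower at an unadjusted p under 0.05), where 6.37% of 16459 genes were called up and 8.81% down. The median was 0.44. Both comparisons called 81 members up, the first alone called 60, the second alone 25, and 10 members were called in neither, ANGPTL4, PRDM1, and ZFHX3 among them. The joint share over all genes was not computed, so these counts are a description. Genes that met only the GSK-J4 side of the rule rose nearly as often in the first (794 of 1002, 79.2%, against 80.1% of members), and genes that met only the knockdown side nearly as often in the second (346 of 602, 57.5%, against 60.2%). These libraries come from the same cells and experiments as those that chose the members.

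**Figure D3:**
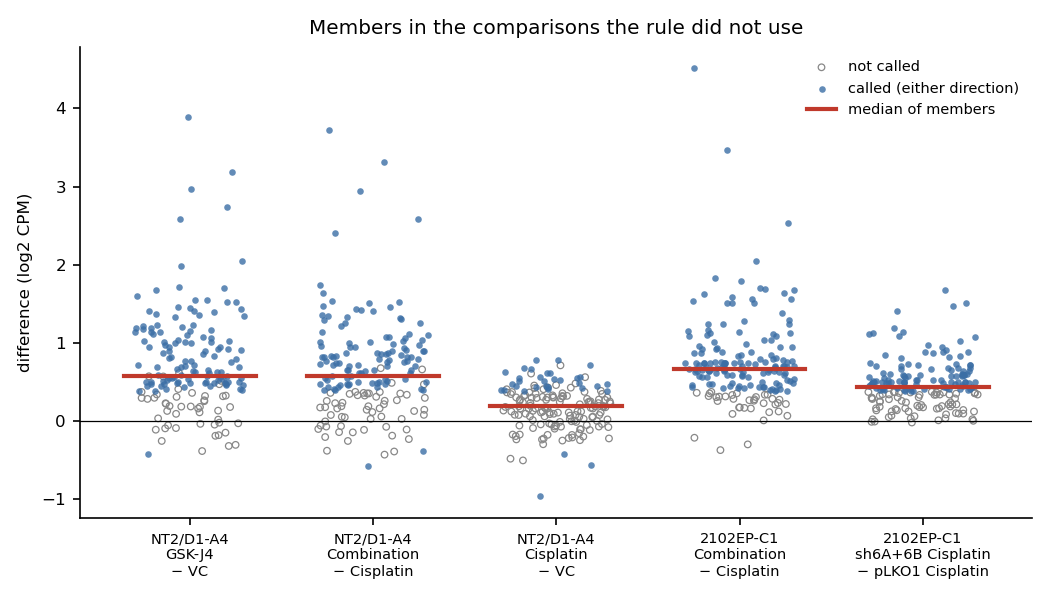
Each point is 1 member in 1 of the 5 comparisons that the rule did not use, on a log2 CPM scale, filled where called in either direction and open where not. Red lines are medians of the members, at 0.58, 0.58, 0.19, 0.66, and 0.44 from left to right, and LAMP3 is the highest point of the fourth comparison at 4.51.

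A total of 46 members rose in all of GSK-J4 and Combination in NT2/D1-A4 cells and both cisplatin-treated comparisons in 2102EP-C1 cells. GREM1, GCNT4, KITLG, FAS, NRP2, and IRAG2 were among them. Taken singly, these comparisons called up 13.8%, 12.8%, 10.6%, and 6.37% of all genes, and the joint share over all genes was not computed. The knockdown was made in 2102EP-C1 cells only. At the other end, 40 of the 167 members rose in neither GSK-J4 comparison in NT2/D1-A4 cells.

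GREM1 encodes gremlin, a secreted antagonist of bone morphogenetic proteins. In 2102EP-C1 cells it was -0.89, -0.77, and -0.48 log2 CPM in VC, 1.23, 1.33, and 1.71 in GSK-J4, -0.61, -0.79, and -0.56 in pLKO1, and 0.57, 0.55, and 0.32 in sh6A+6B libraries. In NT2/D1-A4 cells it was 2.36, 2.07, and 2.37 in VC, 2.79, 2.99, and 3.06 in Cisplatin, 3.04, 3.10, and 3.16 in GSK-J4, and 3.31, 3.45, and 3.52 in Combination libraries. Among the 4 groups of NT2/D1-A4 cells only Cisplatin and GSK-J4 overlapped, and the rise was 0.83 ± 0.09 log2 CPM (SE) with GSK-J4 (adjusted p = 7.13e-07) and 0.68 ± 0.09 with cisplatin (adjusted p = 0.000159).

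ADM encodes adrenomedullin, a vasodilator peptide. It was 3.54, 3.27, and 3.64 in VC and 4.45, 4.47, and 4.46 in GSK-J4 libraries of 2102EP-C1 cells, and 2.90, 2.92, and 2.93 in pLKO1 and 4.13, 4.09, and 4.02 in sh6A+6B libraries. In NT2/D1-A4 cells it moved less, from 5.54, 5.51, and 5.53 to 5.96, 6.07, and 5.99, with no overlap (0.48 ± 0.04, adjusted p = 6.09e-08). After cisplatin the NT2/D1-A4 difference was 0.30 and below the fold limit. KITLG, the ligand of the KIT receptor of germ cells, was 5.36, 5.36, and 5.42 in VC and 6.90, 6.97, and 7.08 in GSK-J4 libraries of NT2/D1-A4 cells, a rise of 1.61 ± 0.05 (adjusted p = 6.23e-15). It also rose after cisplatin in 2102EP-C1 cells, by 1.24 ± 0.05 in Combination and 0.59 ± 0.04 in the knockdown. FGF2, a growth factor that maintains human pluripotent cells in culture, rose in Combination 2102EP-C1 cells by 0.75 ± 0.05 but in NT2/D1-A4 cells differed by 0.32 with GSK-J4, under the fold limit.

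INHBE, an inhibin beta subunit, had the largest rise of any member in NT2/D1-A4 cells (3.89 ± 0.18 log2 CPM). It was -1.08, -1.05, and -1.65 in VC and 2.63, 2.49, and 2.77 in GSK-J4 libraries. Every library of that line without GSK-J4 was under 0.5 CPM. INHBE thus passed the authors' filter only through libraries with GSK-J4, and this rise is given as a description. In 2102EP-C1 cells it was -0.32, -0.21, and -0.37 in VC and 2.37, 2.48, and 2.22 in GSK-J4 libraries. The knockdown gave a much smaller difference, 1.15, 0.91, and 1.06 in pLKO1 against 1.48, 1.55, and 1.42 in sh6A+6B libraries, and 0.39 ± 0.11 after cisplatin, a call lost without pLKO1 Cisplatin replicate 2 (0.35). LAMP3, a lysosomal membrane protein, had the same shape. It was -0.38, -0.05, and -0.30 in VC against 4.34, 4.24, and 4.3 in GSK-J4 libraries of 2102EP-C1 cells, and rose by 3.19 ± 0.21 in NT2/D1-A4 cells (adjusted p = 5.48e-10). In the knockdown it was -0.56, -0.01, and -0.10 in pLKO1 and 0.31, 0.47, and 0.24 in sh6A+6B cells, and after cisplatin the 2 groups were alike at 0.63, 0.70, and 0.54 against 0.75, 0.52, and 0.61 (difference 0.00 ± 0.11, adjusted p = 0.978). At such low levels the fitted size depends on the prior count of 3 reads.

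CHAC1 and DDIT4 were the 2 members on the list of integrated stress response genes. CHAC1 degrades glutathione and DDIT4 restrains mTORC1. CHAC1 was 0.14, 0.16, and 0.25 in VC and 3.22, 3.08, and 3.15 in GSK-J4 libraries of NT2/D1-A4 cells (2.96 ± 0.14, adjusted p = 5.00e-12), and DDIT4 was 3.31, 3.44, and 3.17 against 5.98, 6.01, and 6.14 (2.74 ± 0.06, adjusted p = 2.74e-16). Across the whole list, 36 of 41 genes rose in GSK-J4-treated NT2/D1-A4 cells and none fell. In 2102EP-C1 cells with cisplatin, 37 of 43 rose with GSK-J4 and none fell, but 3 of 42 rose and 1 fell with the knockdown, where CHAC1 and DDIT4 rose by 0.39 ± 0.12 and 0.40 ± 0.02. The call of CHAC1 there was lost without pLKO1 Cisplatin replicate 1 (0.34) or 2 (0.32) or sh6A+6B Cisplatin replicate 3 (0.34). The list's median was 0.94 log2 CPM with GSK-J4 and -0.02 with the knockdown, each in its own table.

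The list of p53 targets held 8 members: the death receptor gene FAS, the TRAIL receptor genes TNFRSF10B, TNFRSF10C, and TNFRSF10D (the last pair encode decoys), KITLG, ANXA1, PRDM1, and TRIM22. All 8 rose in NT2/D1-A4 cells given GSK-J4, both alone and after cisplatin, and 4 rose with cisplatin alone. Of the list's 87 genes there, 62 rose in Combination against Cisplatin and 22 with cisplatin alone, and none fell in either. Over the whole list, 61 of 87 genes rose and 1 fell in GSK-J4-treated NT2/D1-A4 cells, 38 of 89 rose and 2 fell in Combination 2102EP-C1 cells, and 7 of 88 rose and 3 fell in sh6A+6B Cisplatin cells. Of the 8 members, 5 rose in each of the last 2 comparisons, where 80.1% and 60.2% of all members did.

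FAS was 2.59, 2.41, and 2.26 in VC, 2.89, 2.95, and 2.88 in Cisplatin, 4.17, 4.1, and 4.03 in GSK-J4, and 4.13, 4.48, and 4.51 in Combination libraries of NT2/D1-A4 cells. No cisplatin value overlapped VC, and every library with GSK-J4 lay above every one without it. In 2102EP-C1 cells after cisplatin it rose by 1.28 ± 0.08 with GSK-J4 (adjusted p = 6.45e-10) and by 0.68 ± 0.05 with the knockdown (adjusted p = 2.57e-11). The 3 TNFRSF10 genes lie next to each other on chromosome 8, with gaps of 33890 and 18143 bases. TNFRSF10C was 0.89, 0.56, and 0.73 in VC and 2.67, 2.85, and 2.78 in GSK-J4 libraries of NT2/D1-A4 cells (2.04 ± 0.13). TNFRSF10D rose there by 0.85 ± 0.09. TNFRSF10B was low in that line, at -1.08, -0.85, and -0.69 in VC and -0.20, 0.17, and 0.52 in GSK-J4 libraries (1.04 ± 0.25, adjusted p = 0.0019), whereas it was 4.39 to 4.57 in VC libraries of 2102EP-C1 cells, in a table normalized separately. In the knockdown after cisplatin, TNFRSF10D rose by 0.54 ± 0.05, while TNFRSF10B and TNFRSF10C differed by 0.34 and 0.37, short of the fold limit, although TNFRSF10C passed it without pLKO1 Cisplatin replicate 1 (0.39). TNFSF15, a ligand of the same superfamily picked after its values were seen, differed by 1.06 log2 CPM in GSK-J4-treated NT2/D1-A4 cells. It was -2.534, -2.5, and -1.815 in VC and -1.718, -1.31, and -0.634 in GSK-J4 libraries, few reads in each. It passed the authors' filter only through libraries with GSK-J4, so the difference is given as a description.

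**Figure D4:**
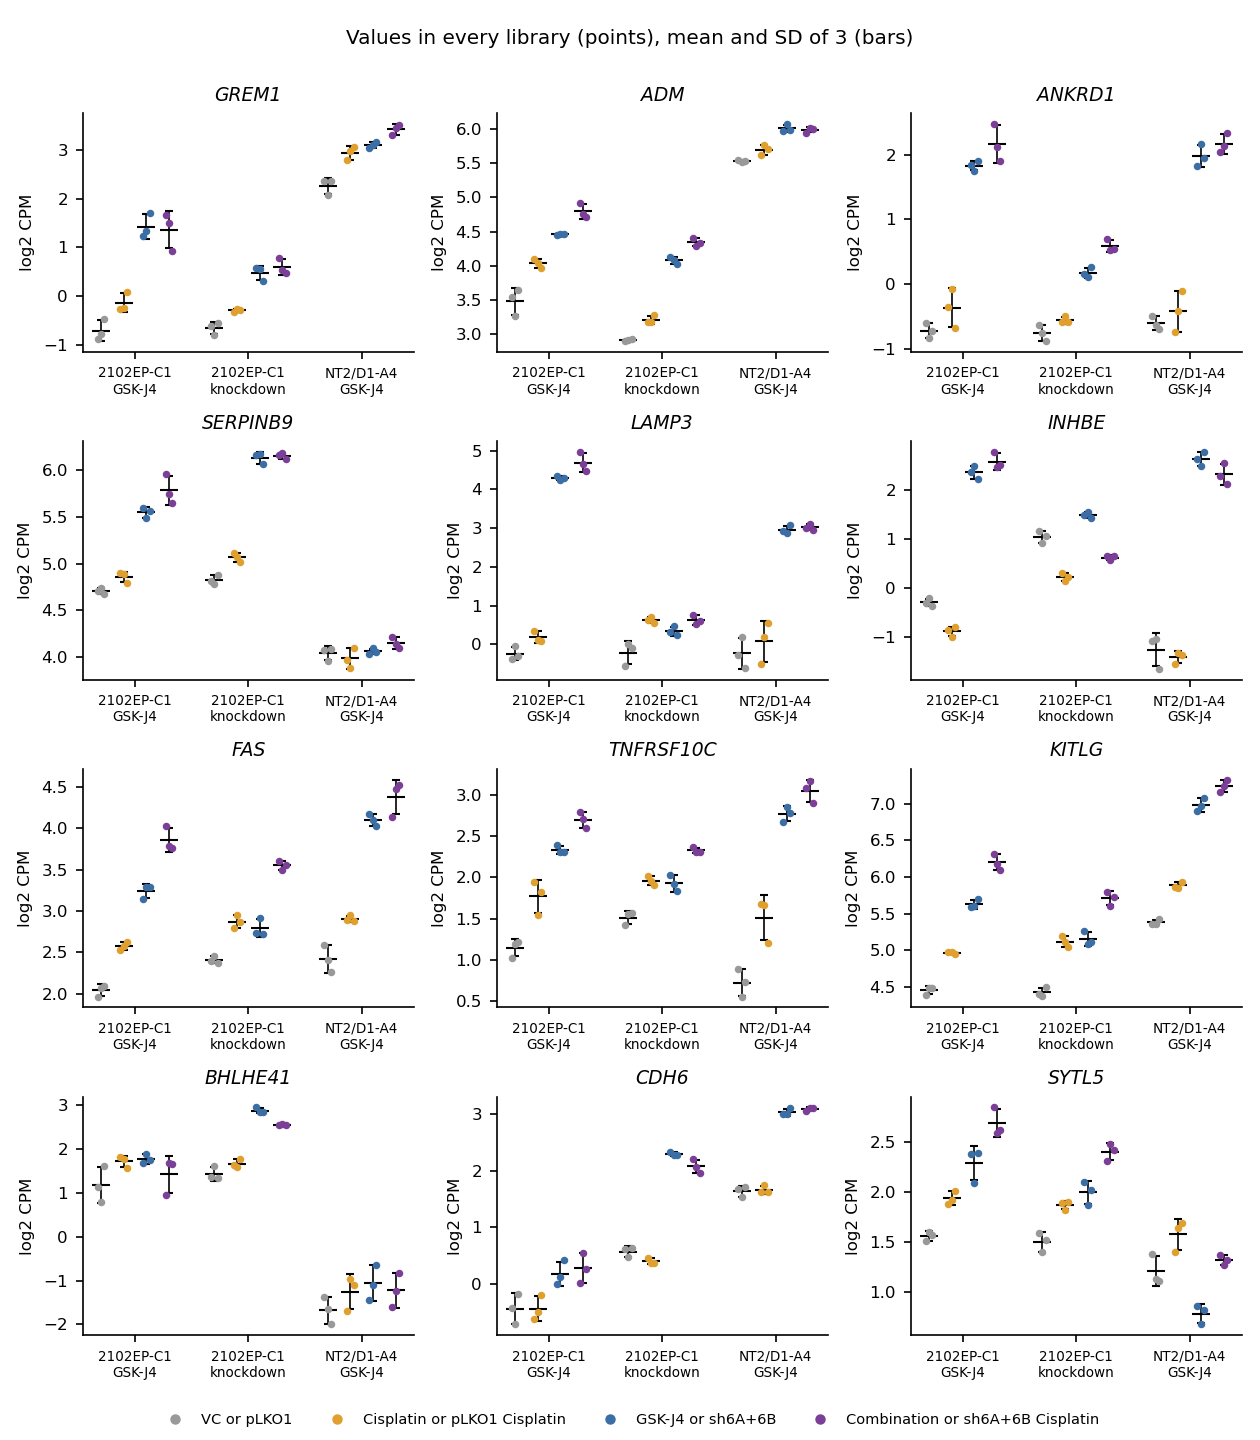
Points are single libraries of 12 members on a log2 CPM axis of each panel's own range, and bars give the mean and SD of 3 libraries. In every panel the left, middle, and right blocks are the 2102EP-C1 GSK-J4, 2102EP-C1 knockdown, and NT2/D1-A4 GSK-J4 experiments. SERPINB9 is flat in NT2/D1-A4 cells at 3.89 to 4.22, and SYTL5 is lowest there with GSK-J4, at 0.68 to 0.86.

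The list of YAP and TEAD targets, genes switched on by the Hippo pathway's effectors, held 4 members, ANKRD1, CCN2, AJUBA, and CRIM1. ANKRD1, a nuclear cofactor known from stressed muscle, was -0.61, -0.84, and -0.72 in VC and 1.84, 1.75, and 1.90 in GSK-J4 libraries of 2102EP-C1 cells, and -0.63, -0.76, and -0.88 in pLKO1 and 0.16, 0.10, and 0.26 in sh6A+6B libraries. VC values this low rest on few reads. In NT2/D1-A4 cells, whose table was normalized separately, it was -0.49, -0.63, and -0.69 in VC and 1.82, 2.17, and 1.96 in GSK-J4 libraries. The rise there was 2.58 ± 0.17 (adjusted p = 3.8e-10). CCN2, a matricellular protein, rose by 0.53 ± 0.06 there, and by 0.70 ± 0.06 and 0.51 ± 0.03 with GSK-J4 and knockdown after cisplatin in 2102EP-C1 cells. AJUBA rose by 0.69 log2 CPM in NT2/D1-A4 cells and CRIM1 was at 0.37, just short, and passed without GSK-J4 replicate 1 (0.42), VC replicate 1 (0.39), or VC replicate 2 (0.40). The promoters of ANKRD1 and CCN2 are those printed above with TEAD motifs. Of the whole list, 8 of 32 genes rose and 3 fell in GSK-J4-treated NT2/D1-A4 cells, 10 of 30 rose and 1 fell in Combination 2102EP-C1 cells, and 3 of 30 rose and 4 fell with the knockdown after cisplatin. VGLL3, a TEAD cofactor named for its rule values (0.83 and 0.93), differed by 0.13 in NT2/D1-A4 cells and was not called.

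The hypoxia response list held 6 members, ADM, ANGPTL4, BHLHE40, BHLHE41, DDIT4, and LOX. Over the list, 15 of 45 genes rose and none fell in sh6A+6B Cisplatin cells, where 5 of the 6 members rose. LOX, which crosslinks collagen, rose by 0.95 log2 CPM. In Combination 2102EP-C1 cells 6 of 44 list genes rose and 13 fell, and in NT2/D1-A4 cells 12 of 43 rose and 1 fell with GSK-J4. ANGPTL4, a lipoprotein lipase inhibitor, was 0.81, 0.80, and 1.14 in Cisplatin and 0.61, 0.40, and 0.63 in Combination libraries of 2102EP-C1 cells, with the Combination values below the others, although without cisplatin GSK-J4 was the higher group (0.81, 1.11, and 0.59 against 0.12, 0.45, and 0.52). The difference of -0.37 ± 0.16 was not called (adjusted p = 0.0623).

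BHLHE40 and BHLHE41 are also transcriptional repressors of the circadian clock, and CIART, TEF, and RORA, clock-linked genes, were members too. This group was put together after the values were seen, as was a wider list of clock genes that holds it. Of that list, 8 of 24 genes rose and 1 fell with the knockdown after cisplatin. In Combination 2102EP-C1 cells 2 of 24 rose and 2 fell. In GSK-J4-treated NT2/D1-A4 cells 3 of 22 rose and none fell. BHLHE41 was 1.35, 1.60, and 1.33 in pLKO1 and 2.95, 2.85, and 2.83 in sh6A+6B libraries, and after cisplatin the knockdown difference was 0.88 ± 0.07 (adjusted p = 3.33e-11). CIART was 2.50, 2.45, and 2.51 against 3.38, 3.36, and 3.26, and the difference after cisplatin was 0.98 ± 0.06 (adjusted p = 6.99e-13). With the knockdown after cisplatin BHLHE40 rose by 0.71 ± 0.05, TEF by 0.51 ± 0.10, and RORA by 0.50 ± 0.05. So all 5 genes rose in that comparison, where 60.2% of the members and 6.37% of all genes did. The rule had already chosen these 5 genes for a rise with the knockdown. None was called with GSK-J4 after cisplatin in 2102EP-C1 cells, where the differences were 0.01, -0.30, -0.21, 0.34, and 0.23 log2 CPM for BHLHE40, BHLHE41, CIART, TEF, and RORA. The VC libraries were spread for BHLHE40, at 3.35, 2.85, and 3.83, against 4.05, 4.2, and 4.11 in GSK-J4 libraries. In NT2/D1-A4 cells BHLHE40 and RORA rose with GSK-J4 by 0.95 ± 0.07 and 0.90 ± 0.11, while BHLHE41 (-2.0 to -0.63) and CIART (-1.04 to -0.28) stayed low in VC and GSK-J4 libraries alike. TEF was 2.92, 2.72, and 2.76 in VC and 2.52, 2.64, and 2.67 in GSK-J4 libraries, lower without overlap but not called (-0.19 ± 0.08, adjusted p = 0.0602).

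Development and adhesion genes formed another group. CDH6, a cadherin of kidney and neural crest cells, had the largest knockdown difference, 0.61, 0.47, and 0.64 in pLKO1 against 2.33, 2.27, and 2.27 in sh6A+6B libraries, and after cisplatin it rose by 1.68 ± 0.09 (adjusted p = 5.28e-14). In NT2/D1-A4 cells it rose from 1.68, 1.53, and 1.71 to 3.00, 3.00, and 3.10 with GSK-J4 (1.39 ± 0.09). All 5 members of the list of integrins, cadherins, and junction genes (ALCAM, CDH2, CDH6, CDH8, and CTNNA3) rose there as well, among 20 of the list's 58 genes that rose and 5 that fell. The call of CDH2 was lost without VC replicate 3 (0.38). TWIST1, a mesenchymal transcription factor, was -0.08, 0.47, and 0.21 in pLKO1 and 1.59, 1.73, and 1.79 in sh6A+6B libraries, and differed by 0.34 in NT2/D1-A4 cells, not called unless GSK-J4 replicate 2 was left out (0.40). HAND1, a mesoderm and trophoblast regulator, rose by 0.57 ± 0.10 there. The summed level of the mesoderm marker list was 189 to 200 CPM with GSK-J4 against 162 to 173 in VC libraries of 2102EP-C1 cells. For the knockdown it was 237 to 242 against 195 to 197. GSK-J4-treated NT2/D1-A4 libraries had 1097 to 1153 against 1267 to 1327 for VC, so the direction of the sum was not shared by the lines. By calls of single genes, more rose than fell in both lines. Of the list, 10 of 22 genes rose and 1 fell in GSK-J4-treated NT2/D1-A4 cells. Combination 2102EP-C1 cells had 6 of 22 up and 1 down, and the knockdown after cisplatin 6 of 21 up and 2 down. Over all genes, these comparisons called 13.8%, 10.6%, and 6.37% up and 6.48%, 8.85%, and 8.81% down, in the same order. The summed trophoblast and amnion markers, a list on which HAND1 is the 1 member, were lower with GSK-J4 in both lines. Sums were 1325 to 1359 CPM against 1459 to 1467 in the NT2/D1-A4 line and 1272 to 1287 against 1493 to 1541 in 2102EP-C1 cells. They overlapped in the knockdown at 1218 to 1254 against 1215 to 1238. More single genes of this list too were called up than down, to be read beside the same shares over all genes. GSK-J4-treated NT2/D1-A4 cells had 8 of 14 list genes up and 2 down. Combination 2102EP-C1 cells had 5 of 16 up and 3 down, and the knockdown after cisplatin 3 of 17 up and 1 down. The part of these sums in the HAND1 result was not tested. The homeobox gene ALX1 differed by 0.19 and ZFHX3 by 0.49 log2 CPM in NT2/D1-A4 cells, and of this pair ZFHX3 was called, though not without GSK-J4 replicate 2 (0.37).

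Matrix and membrane genes moved to different extents. COL12A1, a fibril-associated collagen, was 1.13, 1.31, and 1.21 in VC and 3.24, 2.93, and 3.15 in GSK-J4 libraries of 2102EP-C1 cells, yet in NT2/D1-A4 cells it was 3.93, 3.73, and 3.48 in VC and 3.85, 4.23, and 4.21 in GSK-J4 libraries. These values overlapped, and the call (0.39 ± 0.11, adjusted p = 0.006) was lost without VC replicate 3 (0.27), GSK-J4 replicate 2 (0.32), or GSK-J4 replicate 3 (0.33). MATN3 and LAMA2, 2 further matrix proteins, rose there by 1.01 and 0.46. Of the whole list of collagens, laminins, and matrix genes, 23 of 72 rose and 3 fell in that comparison. With the knockdown after cisplatin 7 of 71 rose and 15 fell, and 0 of the 3 members were called (differences of 0.38, 0.36, and 0.05 for COL12A1, MATN3, and LAMA2). COL12A1 passed the limit without pLKO1 Cisplatin replicate 3 (0.39) or sh6A+6B Cisplatin replicate 1 (0.43), and MATN3 without pLKO1 Cisplatin replicate 1 (0.40). ANXA1, an annexin that limits inflammation, rose by 0.72 ± 0.07 in the NT2/D1-A4 line with GSK-J4. It rose by 1.68 ± 0.07 and 0.57 ± 0.02 in the GSK-J4 and knockdown comparisons after cisplatin, and ANXA3 and CAV2 rose in NT2/D1-A4 cells by 0.92 and 0.63. TGFBI, an extracellular matrix protein induced by TGF-beta, rose there by 0.39, a call lost without GSK-J4 replicate 3 (0.36), VC replicate 2 (0.34), or VC replicate 3 (0.39, adjusted p above the limit). Among channels, the chloride channel gene CFTR rose by 1.43 log2 CPM in NT2/D1-A4 cells, RYR2 by 0.56 and TRPC6 by 0.50, while CNTN1, a neural adhesion molecule, differed by -0.30 and was not called. RYR2 and FRY differed by -0.01 and -0.02 in the knockdown after cisplatin. RND3 and NRP2, a semaphorin and VEGF co-receptor, rose in NT2/D1-A4 cells by 0.44 and 0.62. RRAGD and WIPI1, of lysosomal signalling and autophagy, differed by 0.16 and 0.56, and only WIPI1 was called.

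**Figure D5:**
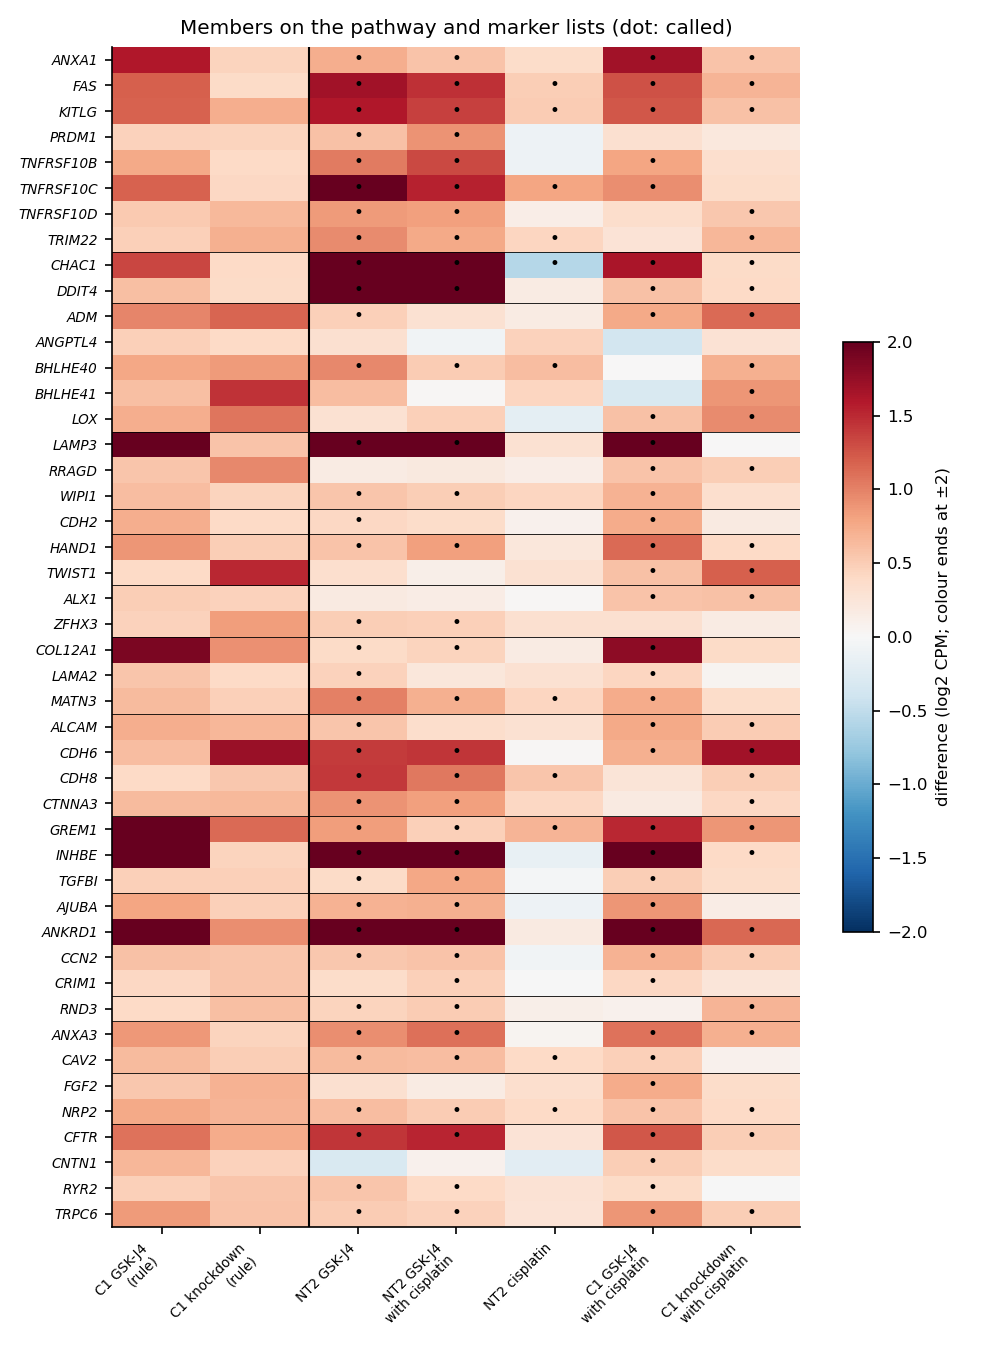
Rows are the 46 members on the pathway and marker lists, with a thin line between lists (each gene under its first list), and columns are the 2 rule differences (left of the thick line) and 5 others, where C1 is 2102EP-C1 and NT2 is NT2/D1-A4. Colour gives the log2 CPM difference up to ±2 and a dot marks a gene called. CHAC1 is the only row that falls with cisplatin in NT2/D1-A4 cells with a dot, and LAMP3 and INHBE are dark in the GSK-J4 columns and pale in the knockdown columns.

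Some members were called in 2102EP-C1 cells only or moved the other way in NT2/D1-A4 cells, though the difference between the lines was not tested. SERPINB9, an inhibitor of granzyme B, was 4.71, 4.74, and 4.68 in VC and 5.60, 5.48, and 5.56 in GSK-J4 libraries of 2102EP-C1 cells, and 4.82, 4.79, and 4.88 in pLKO1 and 6.16, 6.17, and 6.06 in sh6A+6B libraries. It rose after cisplatin in both experiments, by 0.92 ± 0.06 and 1.08 ± 0.03. In NT2/D1-A4 cells it was 4.08, 3.96, and 4.09 in VC and 4.04, 4.1, and 4.05 in GSK-J4 libraries, overlapping values (0.02 ± 0.06, adjusted p = 0.830). SYTL5, a synaptotagmin-like protein of vesicle transport, was the 1 member that fell, from 1.38, 1.14, and 1.11 to 0.86, 0.68, and 0.82 (-0.42 ± 0.13, adjusted p = 0.0099), although in 2102EP-C1 cells it rose after cisplatin with GSK-J4 (0.75 ± 0.10) and the knockdown (0.53 ± 0.07). The call of SYTL5 was lost without GSK-J4 replicate 2 (-0.37) or VC replicate 1 (-0.34) and when libraries were scaled to total reads (-0.38). In Combination NT2/D1-A4 cells the 2 that fell were DHRS2 (-0.39) and FREM1 (-0.57), named after their values were seen. Only 1 member was called down there when Combination replicate 1 or 2 or Cisplatin replicate 1 or 2 was left out.

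Other members had large values on both sides. GCNT4, a glycosyltransferase of O-glycans, rose by 1.2 ± 0.08 in GSK-J4-treated NT2/D1-A4 cells. The rises among cisplatin-treated 2102EP-C1 cells were 1.01 ± 0.13 with the inhibitor and 0.85 ± 0.08 with the knockdown. MCF2 rose by 0.70 ± 0.15, 1.17 ± 0.14, and 1.02 ± 0.06 in those 3 comparisons, in the same order. PARD3B, a polarity protein, rose by 1.21 ± 0.13 and 0.84 ± 0.13 in the GSK-J4 ones and was at 0.36 in the knockdown, past the limit only without pLKO1 Cisplatin replicate 1 (0.39) or sh6A+6B Cisplatin replicate 2 (0.38). The ubiquitin ligase gene RNF128 was -3.15, -2.16, and -2.20 in VC and -1.88, -1.17, and -0.79 in GSK-J4 libraries of NT2/D1-A4 cells, few reads in each. The rise of 1.22 ± 0.38 was no longer called without GSK-J4 replicate 3 (0.98) or VC replicate 1 (0.90). RNF128 passed the authors' filter only through that line's libraries with GSK-J4, so the rise is given as a description. IRAG2 and SNTB1, a syntrophin, rose there by 1.99 ± 0.16 and 1.71 ± 0.19. Outside the NT2/D1-A4 table, the HLA class II gene HLA-DQB1 rose by 0.68 ± 0.13 and 1.41 ± 0.08, and the noncoding UCA1 by 1.83 ± 0.12 and 0.57 ± 0.07, with GSK-J4 and knockdown after cisplatin.

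Of the 27 gene lists, 8 held no member. These were AP-1 and immediate early genes, NRF2 antioxidant genes, the retinoic acid response, the WNT pathway, HLA class I with antigen processing, cholesterol and fatty acid synthesis, cell cycle genes, and polycomb and KDM6 genes. These 8 lists had 24 to 50 genes in both 2102EP-C1 tables, and members were 176 of 16104 genes, so having no member is not read as a result. In all, 46 members were on at least 1 list and 130 on none.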

How the data were processed

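The libraries were stranded mRNA. Before deposit, the authors used Trimmomatic, STAR (GRCh38.p14), featureCounts, TMM scaling, and a filter that needed more than 0.5 CPM in 2 or more samples. Versions and the strand setting are not given in the sources used here. The deposited values are log2 CPM. Reads recovered from them with a prior count of 3 came out whole (tolerance 0.05 read) for 100% of values under 50 reads. The log2 values were fitted by limma 3.58.1 (R 4.3.3) with an intensity trend and two-sided moderated tests, over all 12 libraries in NT2/D1-A4 cells and over the 6 compared in 2102EP-C1 cells, whose other arms chose the members. P-values were Benjamini-Hochberg adjusted over every gene of a table. A gene was called when adjusted p was under 0.05 and the fold change above 1.3. The fits were tested on simulated data. Members and gene lists were chosen with earlier results of these data known. Genes were named by rule: the 12 members with the largest smaller rule difference and treated means over 1, up to 8 of the largest rises and of the largest falls in NT2/D1-A4 cells, the 5 highest and 5 lowest members after cisplatin in 2102EP-C1 cells, members on a list, and the 3 genes nearest each side of the limit. Gene identifiers matched RefSeq for 16414 genes of the NT2/D1-A4 table and 17020 and 16443 of the others. Alternatives covered scaling, prior count, filters, fold limits, voom on recovered reads, a replicate block, and leaving out each library.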

Additional observations from a re-analysis of the deposited data

Results flagged for a closer look

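Some members went opposite ways in 2 settings of 1 contrast, with no overlap between the groups of 3 libraries in either. GSK-J4 minus VC was above 0 in 2102EP-C1 cells by the rule but lower in all 3 libraries of NT2/D1-A4 cells for SYTL5 (-0.42 log2 CPM), TEF (-0.19), and LOC124902696 (-0.09). Combination minus Cisplatin was higher in all 3 libraries of 2102EP-C1 cells and lower in all 3 of NT2/D1-A4 cells for PCDHA5 (-0.39 in NT2/D1-A4 cells), DHRS2 (-0.39), SYTL5 (-0.25), DACT1 (-0.19), and FLI1 (-0.14). For ANGPTL4 the GSK-J4 libraries were the higher in 2102EP-C1 cells without cisplatin and the lower with it (-0.37). The difference between these settings was not tested, and the 2102EP-C1 direction without cisplatin was fixed by the choice of members. DACT1 also turned within NT2/D1-A4 cells, from 0.18 without cisplatin to -0.19 with it, and the interaction was not called by limma (-0.37, adjusted p = 0.0896).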

How the results depend on the processing

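Requiring log2 CPM over 1 in every library left 77 members called up with GSK-J4 and 64 in Combination in NT2/D1-A4 cells. There 1216 and 1102 of the 11430 genes tested were called up. In 2102EP-C1 cells it left 83 in Combination and 65 with the knockdown, where 1066 of 11881 and 472 of 12206 genes were. The 3 NT2/D1-A4 comparisons had 0, 1, and 1 members called down, and 701, 792, and 32 of the 11430 genes. How far the lower counts came from members leaving the test was not tested. For a fold limit of 1.5 no shares over all genes are given. That limit gave 8 members up and 1 down with cisplatin alone and 47 up with the knockdown after cisplatin. It gave 0 down in both GSK-J4 comparisons of NT2/D1-A4 cells. Scaling to total reads gave 0 down in both, and voom or a fit to the 6 libraries compared gave 1 down in Combination. A rule limit of 1.2-fold would have chosen 348 genes and 1.5-fold 42. Without 1 library at a time, members called down ranged from 0 to 1 with GSK-J4 and from 1 to 2 in Combination in NT2/D1-A4 cells. The sign of small differences (log2 CPM) turned for BHLHE41 in NT2/D1-A4 Combination under voom (-0.022) and for RYR2 in the knockdown under total scaling (0.005). Leaving out 1 library, the range crossed 0 in NT2/D1-A4 cells for CNTN1 (-0.534 to 0.031) and SERPINB9 (-0.023 to 0.041) with GSK-J4, and in Combination for ANGPTL4 (-0.207 to 0.203), BHLHE41 (-0.193 to 0.221), CIART (-0.299 to 0.085), CNTN1 (-0.055 to 0.199), and VGLL3 (-0.12 to 0.121). In 2102EP-C1 cells it did so for BHLHE40 in Combination (-0.079 to 0.111) and, with the knockdown, for FRY (-0.061 to 0.044), LAMP3 (-0.06 to 0.058), and RYR2 (-0.059 to 0.02). Where no value shows it, the cause was not tested. Not every equal-numbered pair correlated over 0.1, so the numbers were not taken to pair the libraries. The median correlation of deviations for equal numbers was -0.012, -0.002, and -0.025 in the 2102EP-C1 GSK-J4, knockdown, and NT2/D1-A4 experiments. In the same order 2, 7, and 4 of 18 pairs were over 0.1, with highest values of 0.139, 0.501, and 0.475. With a replicate block, 119, 107, and 31 members were called up in the NT2/D1-A4 comparisons, beside 2271, 2089, and 329 of all 16431 genes. In those of 2102EP-C1 cells 141 and 106 were, beside 1811 of 17035 and 1047 of 16459 genes. Of 2698 values of named genes under the alternatives, 2605 kept their direction and side of the threshold. Genes near 0 log2 CPM rest on few reads in the shallower experiments.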
